A study of Drosophila melanogaster with 6 samples.

Results

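The genes described here are 38 genes of mitosis and cytokinesis, listed by symbol, of which 27 were measured among 11982 genes with a probe set of their own on the array. A member was measured where a probe set named it as its only gene, and the probe set with the highest mean intensity stood for it. The other 11 members, CycA, Cdk1, stg, polo, aurA, BubR1, asp, pav, sti, pnut and Klp3A, had no such probe set in the annotation table used here and were not analysed here. The data are array intensities from circulating hemocytes, the blood cells of Drosophila melanogaster, taken from wandering larvae of the third instar. The 3 Idh-R195H samples carried the transgene UAS-Idh-R195H together with hml-Gal4 and UAS-2xEGFP, and the 3 control samples carried hml-Gal4 and UAS-2xEGFP alone. Both groups therefore had the hemocyte driver hml-Gal4 and a green fluorescent reporter, and they differed in the mutant enzyme, which corresponds to IDH1-R132H of human cancers. Expression of the transgene was limited to cells in which hml-Gal4 is active, while RNA was taken from all hemocytes collected. Each sample pooled hemocytes of 400 larvae, kept at 29 °C and bled on day 7 in a way meant to spare the lymph gland. In such bulk samples, fewer cells of a type and less RNA per cell cannot be told apart. The study asked which genes and pathways differ between these genotypes.

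Mitosis is driven by cyclin-dependent kinase activity, which string-type phosphatases switch on and the anaphase-promoting complex switches off by marking cyclins for destruction. Condensin compacts the chromosomes, the kinetochore couples them to the spindle, and the spindle checkpoint holds anaphase until every chromosome is attached. The chromosomal passenger complex and centralspindlin then mark the cell equator, where anillin and the contractile ring divide the cell. Larval hemocytes increase in number by division, and many of these transcripts are made mainly in dividing cells.

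The deposited values were linear intensities, with array medians from 76.0 to 82.7 in Idh-R195H and from 80.2 to 106.5 in control samples. The Idh probe set lay at 9967 ± 941 in Idh-R195H and 4035 ± 245 in control samples (SD, n = 3 each), in the direction of the labels. The ratio of 3' to 5' intensity of Act5C, which rises where RNA is degraded or incompletely copied, was 2.13 to 2.39 on Idh-R195H arrays and 3.72 to 6.17 on control arrays. Salivary gland markers summed to intensities of 1064 to 5150 on Idh-R195H arrays and 23833 to 250148 on control arrays. The hybridisation controls had median intensities of 1029 to 1185 on Idh-R195H arrays and 2072 to 2407 on control arrays. Scaling on them therefore raises Idh-R195H values against control values for genes in general. Across probe sets, which are not independent, Pearson's correlation of log2 values was 0.952 to 0.957 among Idh-R195H arrays, 0.876 to 0.928 among control arrays and 0.889 to 0.913 between the groups.

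Transcripts of mitosis and cytokinesis genes were mostly more abundant in Idh-R195H than in control hemocytes, but only 1 passed the test. Of the 27 measured members, 25 had a log2 fold change above 0 (Idh-R195H minus control), against 44.6% of the 11955 other genes. The members' median log2 fold change was 0.48, beside -0.08 for the other genes. The gene scra, which encodes anillin, was the 1 member that rose at an adjusted p below 0.05 (limma, Benjamini-Hochberg over all probe sets), and 0 members fell. In the background 2.3% of the other genes were called higher and 1.48% lower, which makes 1 call in 27 close to the background. Over all 18769 probe sets 3.11% were called, 1.9% higher (356) and 1.21% lower (228), a split that was 318 to 111 after centring each array on its median and 6227 to 182 after scaling on the hybridisation controls.

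Upward separation between the groups, a weaker criterion than a call, was more frequent among the members than among the other genes. For 16 of 27 members the lowest Idh-R195H array exceeded the highest control array, against 14.8% of the other genes. The reverse was found for 0 members, against 16.8% of the other genes. An unadjusted p below 0.05 in limma was reached by 13 members, all of them higher in Idh-R195H, against 9.54% of the other genes in that direction. All members had mean intensities over the 6 arrays between 117 and 2619, and among the 6749 other genes in that range the median log2 fold change was 0.00, with 50.1% above 0. In that range 18.7% of the other genes had all Idh-R195H arrays above all control arrays. The range is wide, and genes within it were not matched to the members in brightness. Because the list was put together with earlier results of these data known, no p is given for it as a whole.

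**Figure D1:**
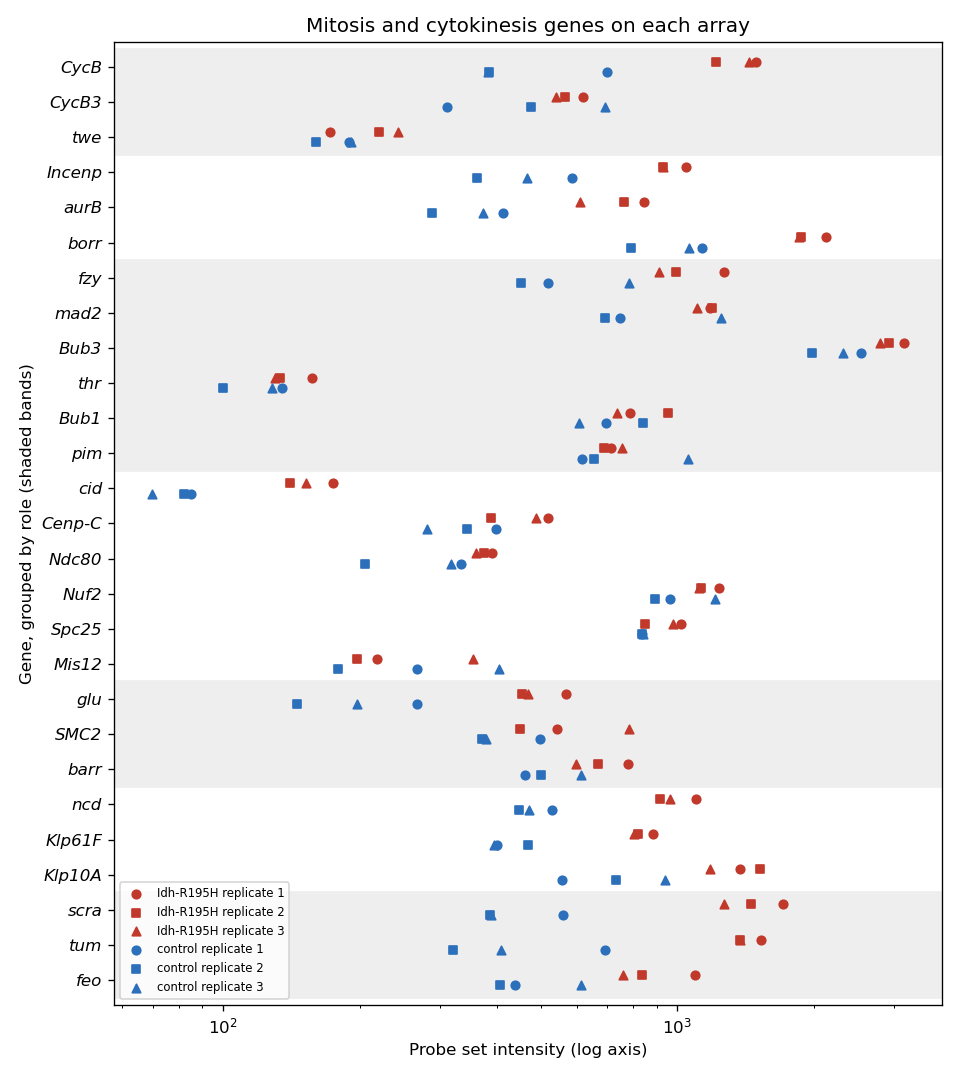
Probe set intensity (log axis) of each of the 27 measured genes on each array, with Idh-R195H arrays in red above control arrays in blue and shading by role. The 3 Idh-R195H points lie to the right of all control points for 16 genes, and 4 genes, mad2, CycB3, Mis12 and pim, have their highest point on control replicate 3.

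Among the regulators of mitotic entry, CycB (CG3510) stood apart from the other measured genes. CycB encodes cyclin B, a partner of Cdk1 that is destroyed at anaphase. Its intensity was 1491, 1215 and 1442 in Idh-R195H replicates 1, 2 and 3, against 699, 385 and 384 in control replicates 1, 2 and 3. Every Idh-R195H array was above every control array, and control replicate 1 was the highest control. The log2 fold change was 1.55 ± 0.31 (SE), which did not pass over all probe sets (adjusted p = 0.0612). CycB3 (CG5814), a cyclin that acts later in mitosis, was at 619, 565 and 542 in Idh-R195H and 312, 477 and 695 in control samples. The control values of CycB3 enclosed all Idh-R195H values, with a difference of 0.29 ± 0.33 on the log2 scale (SE, adjusted p = 0.709). The gene twe (CG4965) encodes a Cdc25-type phosphatase known for its role in meiosis, and its intensity of 172, 221 and 243 in Idh-R195H overlapped the 189.7, 160.0 and 191 in control samples (log2 fold change 0.22 ± 0.23, SE; adjusted p = 0.671).

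The 3 measured genes of the chromosomal passenger complex had nearly the same log2 fold change, between 0.99 and 1.06, without passing singly. The gene aurB (CG6620) encodes the complex's kinase, Aurora B, and was at 846, 763 and 611 in Idh-R195H against 414, 288 and 374 in control samples. Incenp (CG12165), the scaffold that binds and activates that kinase, was at 1046, 931 and 932 in Idh-R195H against 588, 362 and 467 in control samples. The borealin gene borr (CG4454), whose product helps to target the complex to chromatin, was at 2129, 1872 and 1853 in Idh-R195H against 1135, 789 and 1061 in control samples. None of the 3 genes overlapped between the groups, and control replicate 2 was the lowest array for each. Their log2 fold changes were 1.05 ± 0.25 for aurB, 1.06 ± 0.25 for Incenp and 0.99 ± 0.23 for borr (SE), with adjusted p-values of 0.0959, 0.0926 and 0.0916.

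Genes of the spindle checkpoint and of the anaphase trigger differed less, apart from fzy. The gene fzy (CG4274) encodes the Cdc20-type activator of the anaphase-promoting complex. Its brightest probe set was at 1269, 995 and 912 in Idh-R195H against 519.5, 453 and 781 in control samples. The groups did not overlap, control replicate 3 was the highest control array, and the log2 fold change of 0.88 ± 0.29 (SE) did not pass (adjusted p = 0.173). The 2 dimmer probe sets of fzy had mean intensities of 30.4 and 36.8 in Idh-R195H and 62.6 and 53.7 in control samples, the opposite direction, with log2 fold changes of -1.09 and -0.45 that did not pass (adjusted p = 0.171 and adjusted p = 0.802). Bub3 (CG7581), a checkpoint protein that brings Bub1-type kinases to kinetochores, was at 3162, 2923 and 2789.7 in Idh-R195H against 2543, 1983 and 2311 in control samples. Here the arrays did not overlap either, while the difference was small at 0.38 ± 0.20 on the log2 scale (SE, adjusted p = 0.372).

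The checkpoint genes mad2 (CG17498) and Bub1 (CG14030) overlapped between the groups, with log2 fold changes of 0.42 ± 0.29 and 0.21 ± 0.23 (SE). For mad2, the inhibitor of the anaphase-promoting complex that unattached kinetochores release, control replicate 3 at 1246 was the highest of all arrays. The securin gene pim (CG5052) encodes the inhibitor of separase that must be destroyed for sister chromatids to part. It was at 714, 688 and 755 in Idh-R195H against 618, 657 and 1057 in control samples. All Idh-R195H values lay between the lowest and the highest control value, and the log2 fold change was -0.07 ± 0.27 (SE, adjusted p = 0.938). The gene thr (CG5785), which encodes separase, was dim, at 157, 133 and 130.0 in Idh-R195H and 135, 100.1 and 128 in control samples (log2 fold change 0.22 ± 0.22, SE; adjusted p = 0.67).

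At the centromere and kinetochore, cid had the largest log2 fold change of the 6 genes, all of which were measured. The gene cid (CG13329) encodes the centromeric histone H3 variant, the counterpart of CENP-A. It was the dimmest measured member, at 175, 140.0 and 152 in Idh-R195H against 84.8, 81.9 and 69.6 in control samples. All its control values were thus below 100. The arrays of the groups were well separated, at a log2 fold change of 0.97 ± 0.21 (SE) that did not pass (adjusted p = 0.0757). Cenp-C (CG31258), which links centromeric chromatin to the outer kinetochore, was at 520.1, 389 and 489 in Idh-R195H against 399, 344 and 282 in control samples. Its groups overlapped by control replicate 1 alone, with a difference of 0.45 ± 0.24 on the log2 scale (SE, adjusted p = 0.371).

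Genes of the outer kinetochore, which holds the microtubules, were closer to 0. Ndc80 (CG9938) was at 390.3, 376 and 361 in Idh-R195H and 334, 205 and 318 in control samples, which did not overlap (log2 fold change 0.42 ± 0.26, SE; adjusted p = 0.435). Its partners in the same complex, Nuf2 (CG8902) and Spc25 (CG7242), had log2 fold changes of 0.19 ± 0.21 and 0.18 ± 0.19 (SE). Spc25 counted as separated only by the gap between 850.3 in Idh-R195H replicate 2 and 842 in control replicate 3. Mis12 (CG18156), a subunit of the complex that anchors Ndc80, had the lowest log2 fold change of the members at -0.11 ± 0.40 (SE, adjusted p = 0.928). It was at 218, 197 and 354 in Idh-R195H and 267, 179 and 405 in control samples, so that replicate 3 was the highest array in both groups.

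The condensin genes were spread widely. The gene glu (CG11397) encodes SMC4, which pairs with SMC2 to form the core of condensin. It was at 569.7, 455 and 469 in Idh-R195H against 267, 145 and 197 in control samples. The groups were separate by a wide gap, at a log2 fold change of 1.33 ± 0.29 (SE) that did not pass (adjusted p = 0.0783). SMC2 (CG10212) was at 544, 451 and 782 in Idh-R195H against 498, 372 and 379 in control samples, with Idh-R195H replicate 2 below control replicate 1. Its log2 fold change was 0.48 ± 0.29 (SE, adjusted p = 0.42). The gene barr (CG10726), which encodes the kleisin subunit of condensin I, overlapped between the groups at a difference of 0.38 ± 0.22 on the log2 scale (SE, adjusted p = 0.42). Whether these condensin genes differed from each other in response was not tested.

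All 3 measured spindle motors were separated between the groups, with log2 fold changes from 0.90 to 1.04. The gene ncd (CG7831) encodes a minus-end-directed kinesin that focuses spindle poles. It was at 1097, 917 and 966 in Idh-R195H against 531, 448 and 472 in control samples. Klp61F (CG9191), the kinesin-5 motor that pushes spindle poles apart, was at 884, 821 and 802 in Idh-R195H against 401, 469 and 396 in control samples. Both genes were tight within each group, and the lowest Idh-R195H array was well above the highest control array. Their log2 fold changes of 1.04 ± 0.20 for ncd and 0.99 ± 0.19 for Klp61F (SE) missed the threshold (adjusted p = 0.0582 and adjusted p = 0.0611). Klp10A (CG1453), a kinesin-13 that takes microtubules apart at the poles, was at 1376, 1524 and 1183 in Idh-R195H against 559, 731 and 938 in control samples. Its control values were spread more widely, and the log2 fold change of 0.90 ± 0.27 (SE) did not pass (adjusted p = 0.146).

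Cytokinesis genes held the 2 largest log2 fold changes of the members. The gene scra (CG2092) encodes anillin, the scaffold that ties actin, myosin and septins together in the contractile ring. It was at 1709, 1452 and 1264 in Idh-R195H against 559, 387 and 389.7 in control samples. The lowest Idh-R195H array was far above the highest control array, control replicate 1. The gene rose 3.33-fold, with a difference of 1.74 ± 0.25 on the log2 scale (SE, adjusted p = 0.0304). This call was lost after centring arrays on their median (adjusted p = 0.0501), with the replicate number as a block (adjusted p = 0.14) and without any 1 array other than control replicate 1 (adjusted p from 0.0708 without control replicate 3 to 0.135 without Idh-R195H replicate 2). Over all alternatives its log2 fold change stayed between 1.62 and 2.70.

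The gene tum (CG13345), also called RacGAP50C, encodes the GTPase-activating subunit of centralspindlin, which positions the cleavage furrow together with the kinesin made by pav. It was at 1531, 1374 and 1375 in Idh-R195H against 693, 321 and 409 in control samples. Idh-R195H values were nearly equal to each other, whereas control replicate 1 was well above the other control arrays. The log2 fold change of 1.66 ± 0.33 (SE) did not pass (adjusted p = 0.0612). Among runs that left out 1 array, tum passed only without control replicate 1, the highest control (1.97, adjusted p = 0.0239). Leaving out any other array gave adjusted p-values from 0.133 (control replicate 3) to 0.207 (Idh-R195H replicate 1). With all arrays kept, tum passed after scaling on the hybridisation controls (adjusted p = 0.00597) and without probe sets of a mean intensity below 100 (0.0245). It also passed with an intensity trend and robust prior (0.0181), a constant of 16 (0.0343) and the mean of all probe sets per gene (0.0442). Quantile normalization (0.0801), centring (0.0879) and the replicate number as a block (0.168) did not make it pass. The gene feo (CG11207) encodes the PRC1-type protein that bundles microtubules of the central spindle. It was at 1096, 834 and 759 in Idh-R195H against 439, 406 and 612 in control samples, separate between the groups, with a difference of 0.89 ± 0.27 on the log2 scale (SE, adjusted p = 0.15).

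**Figure D2:**
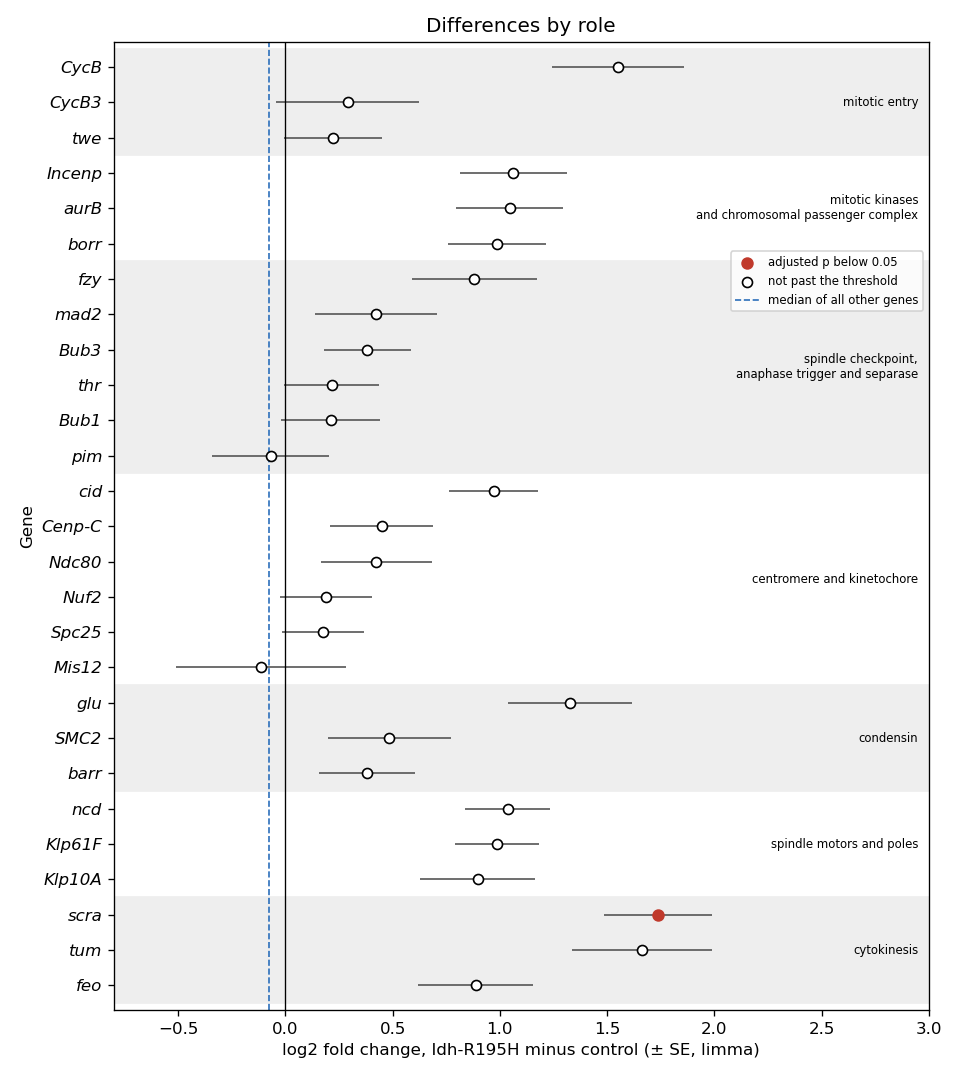
Log2 fold change of each measured gene (Idh-R195H minus control, bars ± SE from limma), ordered by role, with the 1 called gene, scra, filled in red and the median of all other genes as a dashed line at -0.08. The genes fall on either side of an empty stretch between 0.48 (SMC2) and 0.88 (fzy), with 13 above it.

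By size, the measured members formed an upper and a lower set with no gene between when all arrays were kept. The 13 genes of the upper set came from every role and were CycB, the 3 passenger genes, fzy, cid, glu, the 3 spindle motors and the 3 cytokinesis genes. Its brightest probe set placed fzy there, whereas the mean of all its probe sets gave -0.22. A log2 fold change above 0.5 was found in 13 of 27 members and in 16.5% of the other genes. The lower set held most of the checkpoint and outer kinetochore genes. This division was seen in the values and was not tested. The gap narrowed when single arrays were left out. Without control replicate 1, SMC2 had a log2 fold change of 0.62 and Klp10A of 0.71. Without Idh-R195H replicate 2 they were at 0.66 and 0.81.

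**Figure D3:**
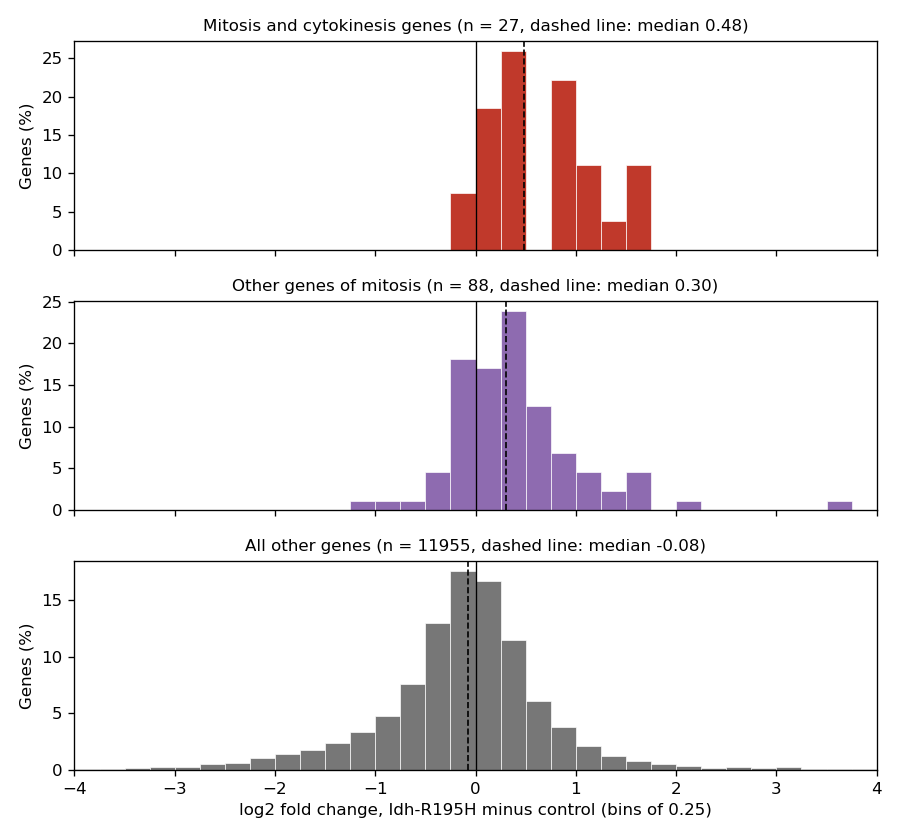
Share of genes (%) by log2 fold change (Idh-R195H minus control, bins of 0.25) for the 27 measured mitosis and cytokinesis genes, for 88 further mitosis genes and for all 11955 genes other than the 27, with medians dashed; values beyond 4 in size are not drawn. The medians lie at 0.48, 0.30 and -0.08.

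The arrays contributed unequally. Idh-R195H replicate 1 was the highest of the 6 arrays for 19 of 27 members, and control replicate 2 was the lowest for 18. Among the other genes these arrays were highest in 13.1% and lowest in 13.3%. Set against each control array alone, the Idh-R195H mean was higher for 26 members over control replicate 1, 26 over control replicate 2 and 22 over control replicate 3. The median of these differences was 0.72, 0.83 and 0.53 on the log2 scale for control replicates 1, 2 and 3, beside -0.05, -0.08 and -0.16 for the other genes. Mean log2 intensity of the members, less that of the other genes, was 1.98, 1.78 and 1.82 on the Idh-R195H arrays and 1.29, 0.79 and 1.04 on the control arrays. On this measure the groups did not overlap. For 22 of 27 members the control arrays varied more than the Idh-R195H arrays, which held for 77.5% of the other genes.

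Several other measures also differed between the groups, while the summed fat body and plasmatocyte markers overlapped. The Act5C ratio averaged 2.28 ± 0.13 on Idh-R195H arrays and 4.78 ± 1.26 on control arrays (SD, n = 3 each). Lamellocyte markers, of which 10 of 11 were separated upward and 7 were called higher, summed to 97931 to 109487 in Idh-R195H and 11674 to 20379 in control samples. Salivary gland markers were separated downward in 7 of 7 genes, with 1 called. Fat body markers were negative in 4 of 4 genes and summed to 6296 to 55853 in Idh-R195H and 44374 to 122474 in control samples. Midgut markers were negative in 8 of 9 genes and summed to 278 to 835 in Idh-R195H and 1205 to 41182 in control samples. Crystal cell markers were negative in 5 of 6 genes and summed to 29620 to 49930 in Idh-R195H and 64815 to 66757 in control samples, with fok called lower, CG17109 called higher, and PPO1 and PPO2 separated downward without passing. Plasmatocyte markers went both ways with 0 of 10 called: Sr-CI (1.22) and Ppn (1.00) were separated upward, and Pxn (-0.93), crq (-1.62) and eater (-0.70) downward, as log2 fold changes. Their sum was 121333 to 127771 in Idh-R195H and 96404 to 171640 in control samples. The part of these differences in the higher mitotic transcripts was not tested.

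Markers listed for imaginal discs, neural tissue, lymph gland progenitors and the germline were also followed. Whether their signal came from those tissues or from hemocytes was not tested. Imaginal disc markers were dim, with 6 of 8 below a mean intensity of 100, and went both ways with 0 called. Of the 8 genes 3 (ey, vg and nub) had log2 fold changes above 0, nub was separated upward (0.65) and ato downward (-0.75). Their sum, most of it from dpp and ap, was 528 to 607 in Idh-R195H and 664 to 701 in control samples. Neural markers, 5 of 6 of them below a mean of 100, summed to 321 to 402 in Idh-R195H and 254 to 361 in control samples. Of the 6 genes 4 were negative and 0 were called. The brightest, elav, was at 163, 245 and 226 in Idh-R195H against 175, 99.7 and 98.9 in control samples (log2 fold change 0.79). Lymph gland progenitor markers also went both ways, with 4 of 6 negative and sums of 9878 to 11368 in Idh-R195H and 7466 to 13781 in control samples. The dim marker kn was the 1 called (higher, log2 fold change 1.12), while of the bright markers Tep4 was separated upward (1.12) and Ance downward (-1.02) without passing. Germline markers summed to 1083 to 1347 in Idh-R195H and 690 to 1364 in control samples, with 0 of 7 called. None of these markers was at exactly 0 on any array.

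**Figure D4:**
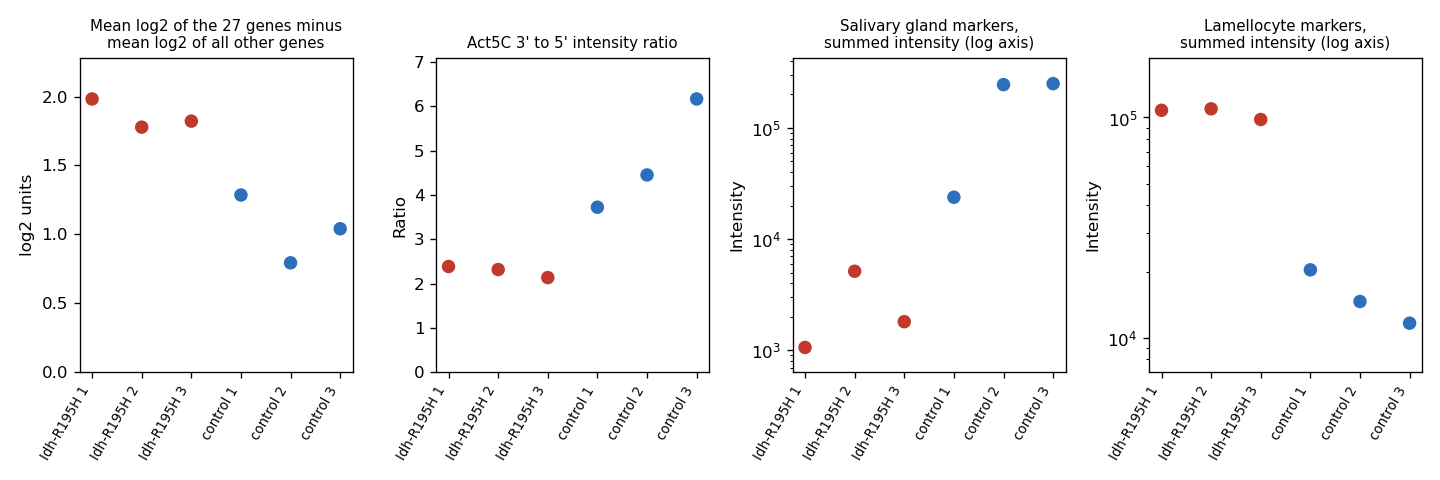
Measures on each array, with Idh-R195H arrays in red left of control arrays in blue: the mean log2 intensity of the 27 genes less that of all other genes, the Act5C 3' to 5' ratio, and the summed intensities (log axes) of salivary gland and lamellocyte markers. The first measure is 1.78 to 1.98 on Idh-R195H and 0.79 to 1.29 on control arrays, and the other 3 also separate the groups.

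Further genes of mitosis were grouped by role. Of 119 symbols listed, older names included, 88 genes were measured, and 65 (73.9%) had a log2 fold change above 0, beside 44.6% of all genes other than the 27 members, with a median of 0.30. At the threshold 4 rose and 0 fell, beside 2.3% called higher and 1.48% called lower in that background. Groups did not overlap, with Idh-R195H higher, for 35 genes (39.8%, background 14.8%) and, with Idh-R195H lower, for 9 (10.2%, background 16.8%). The called genes were Septin4, Cap-D2, Klp67A and cmet.

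Of 7 further genes listed as mitotic kinesins 6 were positive and 2 were called, while the other 5 overlapped between the groups. A role in mitosis was not tested for each listed gene. The median of 0.44 was the value of Kif3C, which was dim. Kif3C was at 17.2, 29.4 and 22.2 in Idh-R195H against 27.9, 23.8 and 6.1 in control samples. Klp67A (CG10923), a kinesin-8 that shortens spindle microtubules, was at 1428, 1306 and 1197 in Idh-R195H against 373, 369.8 and 541 in control samples and rose by 1.63 ± 0.24 on the log2 scale (SE, adjusted p = 0.0309). The gene cmet (CG6392), a CENP-E-type kinetochore kinesin, was at 1166, 1154 and 1184 in Idh-R195H against 496, 530.0 and 531 in control samples and rose by 1.17 ± 0.18 (SE, adjusted p = 0.0348). With the replicate number as a block neither call held (adjusted p = 0.162 for Klp67A and 0.181 for cmet), nor after centring for cmet (0.0583). Leaving out Idh-R195H replicate 1, 2 or 3 or control replicate 2 also ended both, at adjusted p-values of 0.106 to 0.141 for Klp67A and 0.114 to 0.164 for cmet, and leaving out control replicate 3 ended that of cmet (0.0634). Both genes were separated by wide gaps, while Klp31E (log2 fold change 0.84, adjusted p = 0.28), Kif3C (0.44), Klp59D (0.19), nod (0.15) and Klp59C (-0.02) overlapped. Among 25 genes of the centrosome and of spindle assembly, 21 were positive and 0 passed. Those with the lowest p were dgt3, an augmin subunit, at 1.07 ± 0.20, chb, a CLASP-type protein, at 1.05 ± 0.20, and msps, a microtubule polymerase, at 1.53 ± 0.29 (log2 fold change with SE), with adjusted p-values of 0.0563, 0.0563 and 0.0572.

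Of 11 further condensin and cohesin genes 9 were positive, with a median of 0.53, and 1 was called. Cap-D2 (CG1911), a subunit of condensin I, was at 734, 576 and 655 in Idh-R195H against 234, 97.8 and 132 in control samples and rose by 2.16 ± 0.36 on the log2 scale (SE, adjusted p = 0.0416). Quantile normalization ended this call (adjusted p = 0.0821), as did centring (0.0535), the replicate number as a block (0.14) and leaving out any 1 array other than control replicate 1 (0.101 to 0.164). Cap-D3 (CG31989), its counterpart in condensin II, was dim, at 45.3, 24.8 and 39.7 in Idh-R195H against 60.5, 84.5 and 62.1 in control samples. Its sign was the opposite, with a log2 fold change of -0.92 ± 0.30 (SE) that did not pass (adjusted p = 0.174). Nipped-B, the cohesin loader, was dimmer still and differed by 1.63 ± 0.48 on the log2 scale (SE, adjusted p = 0.145).

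Septin4 (CG9699) had the largest difference of all mitosis genes measured here. Septins form filaments at the contractile ring and at the cell cortex outside division. It was at 608, 694 and 751 in Idh-R195H against 41.0, 62.1 and 61.2 in control samples and rose 12.5-fold, with a difference of 3.64 ± 0.25 on the log2 scale (SE, adjusted p = 0.0049). The call was lost with the replicate number as a block (adjusted p = 0.0947) and without Idh-R195H replicate 2 (adjusted p = 0.0549). Septin1, Septin2 and Septin5 overlapped between the groups, with log2 fold changes of 0.33, 0.06 and -0.03. The gene nuf, which acts with recycling endosomes in furrow formation, was at 1.39 ± 0.32 (SE, adjusted p = 0.0888), and tsr, the cofilin gene, at -0.29 ± 0.18 (SE, adjusted p = 0.449). The direction of tsr turned after scaling on the hybridisation controls, to 0.68.

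Subunits of the anaphase-promoting complex and its partners were balanced, with 6 of 13 positive and a median of -0.01. Cdc27 and shtd, which encode subunits of that complex, were at 0.69 ± 0.22 and 0.70 ± 0.27, and APC10 was at -0.37 ± 0.19 (log2 fold change with SE), with adjusted p-values of 0.164, 0.23 and 0.368. The direction of APC10 also turned after scaling on the hybridisation controls, to 0.60. Of 9 further regulators of mitotic entry 5 were positive, with a median of 0.10. Cks30A, a small subunit of cyclin-dependent kinases, was at 1.07 ± 0.24, the checkpoint kinase gene grp at 0.63 ± 0.19 and the phosphatase subunit gene tws at 0.52 ± 0.32 (SE), with adjusted p-values of 0.0796, 0.152 and 0.434.

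Checkpoint and kinetochore genes beyond the members were positive in 10 of 12 cases, with a median of 0.33. Spc105R, which joins the Mis12 and Ndc80 complexes at the kinetochore, was at 0.88 ± 0.24, and Spindly, which recruits dynein there, at 0.56 ± 0.21 (log2 fold change with SE). Neither passed (adjusted p = 0.126 and adjusted p = 0.216). The gene sub, which encodes a kinesin of the central spindle, went the other way, at 49.2, 48.2 and 56.1 in Idh-R195H against 142, 93.2 and 95.5 in control samples. Its arrays did not overlap, at a log2 fold change of -1.07 ± 0.25 (SE) that did not pass (adjusted p = 0.0906).

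**Figure D5:**
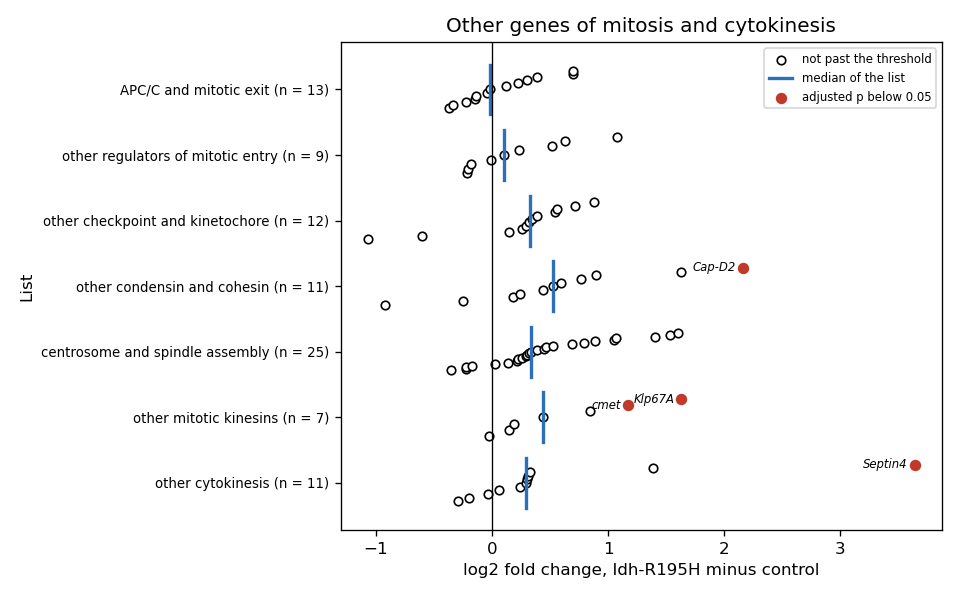
Log2 fold change (Idh-R195H minus control) of 88 further mitosis genes by list, 1 point per gene, with called genes filled in red and named and the median of each list as a blue bar. List medians run from -0.01 for the anaphase-promoting complex to 0.53 for condensin and cohesin.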

How the data were processed

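Per the labels' protocols, biotin-labelled cRNA from 6 ug of total RNA per sample was hybridised to a 1-colour array. The authors deposited linear probe set intensities; per the submitters' processing notes Partek 6.0 was used, with no role given. No genome build or summarisation method is stated there, and coordinates are left out. From the values, every array has a trimmed mean of 500.0, leaving out 2% at each end, so arrays were scaled before deposit. Of 18952 probe sets, 183 array controls were left out. Of the 18769 tested, 13647 had 1 gene symbol in the platform annotation, which can be old, 402 had several and 4720 had none; all stayed in the test. RefSeq's gene table supplied CG numbers for 13544 of the first.

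Intensities were analysed as log2(value + 1), which understates folds of dim genes, with limma 3.58.1 (R 4.3.3): group as the only term, two-sided, Benjamini-Hochberg over all tested probe sets, threshold 0.05. The labels call the samples biological replicates, and the number of arrays limits the precision. Members and lists were chosen with earlier results of these data known. Values on each array are given for the 16 members with the lowest p and the 2 with the lowest log2 fold change, and often for the others. Further mitosis genes are named where among the 3 lowest p of their list; the other septins and kinesins, and single markers, were named after their values were seen. Sequences are not shown.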

Additional observations from a re-analysis of the deposited data

How the results depend on the processing

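The members' median log2 fold change was positive in every alternative run, whereas the number of calls varied. Against 1 called member and 4 called further mitosis genes, there were 0 and 2 after centring arrays on their median, 25 and 74 after scaling on the hybridisation controls, 10 and 12 without probe sets of a mean intensity below 100, 9 and 11 with an intensity trend and robust prior, 6 and 8 with a constant of 16, and 6 and 7 with the mean of all probe sets per gene. Leaving out each array gave 0 to 4 members and 0 to 8 further genes; the 4 members, scra, tum, CycB and glu, came without control replicate 1, and leaving out any other array left 0. Quantile normalization gave 1 and 3. With the mean of all probe sets per gene, the log2 fold change of fzy turned to -0.22. Positive members ran from 24 to 27. Their median log2 fold change was 0.74 after centring and 1.45 after scaling on the hybridisation controls, where the other genes lay at 0.18 and 0.87, and 0.46 to 0.69 without single arrays. APC10 and tsr turned to 0.60 and 0.68 under the hybridisation scaling. That scaling raised Idh-R195H values against control values, and 86.4% of the other genes then had a log2 fold change above 0. With the replicate number as a block 0 members, 0 further genes and 0 probe sets in all were called, with 11 members at an unadjusted p below 0.05. Same-numbered samples deviated together by correlations of 0.03, 0.02 and -0.07, so no deviation shared by number was visible. These values cannot tell whether same-numbered samples were prepared together. Over all probe sets the 584 calls became 6409 with hybridisation scaling, 1297 without dim probe sets, 1253 with the trend, 888 with the constant of 16, and 11 to 870 without single arrays. Signal over background is unknown for single probe sets.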

Other observations

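Among the germline markers, 2 genes were separated upward without passing. The gene bam, which drives germ cells into differentiation, was at 342, 247 and 219 in Idh-R195H against 103, 134 and 158 in control samples (log2 fold change 1.02, adjusted p = 0.127). The gene tej, of the piRNA pathway, was at 187, 152 and 114 in Idh-R195H against 77.3, 90.7 and 104 in control samples (log2 fold change 0.71, adjusted p = 0.221). The other markers of that list overlapped between the groups and went both ways. Their log2 fold changes were 0.06 for vas, -0.16 for aub, 0.33 for AGO3, -0.57 for bgcn and 0.25 for stwl.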
